A study of Acipenser schrenckii with 2 samples.

Results

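The 20 probes described here read miR-122, miR-103 and miR-107, miR-193, miR-365 and miR-210, microRNAs known for roles in liver, lipid, energy and hypoxia control, on a chip of 663 miRNA probes. They were chosen by name from the chip's probe list, taking every letter, copy and arm of these families, and the grouping was proposed after earlier results on the same arrays had shown high male values for several of them. The series holds 2 single-colour (Cy3) miRNA arrays of untreated Amur sturgeon (Acipenser schrenckii), a freshwater fish of the Amur basin. The male array carried RNA of the gonad of 1 fish of 11 months, and the female array RNA of the gonad of 1 fish of the same age, an age described in the labels as the earlier phase of sex differentiation. By its title, the study looked for miRNAs expressed unequally by sex. No strain or genotype is given.

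MicroRNAs are short RNAs that guide a silencing complex to mRNAs, mainly through the seed near their 5′ end, and lower the output of those mRNAs. A hairpin yields a 5p and a 3p arm, of which usually a single arm accumulates. miR-122 is the dominant miRNA of vertebrate hepatocytes and supports lipid and cholesterol metabolism there. miR-103 and miR-107 lie in introns of pantothenate kinase genes, which encode enzymes of coenzyme A synthesis, and dampen insulin signalling in mice. miR-193b and miR-365 come from a common cluster and promote brown fat differentiation in cultured mouse cells. miR-210 is induced by the hypoxia-inducible factor in mammalian cells and represses iron-sulphur cluster assembly.

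The chip was designed on miRNAs of other fishes, and the prefixes dre, ola, ccr, ipu, pol and fru stand for zebrafish, medaka, common carp, channel catfish, olive flounder and fugu. The targets that carry the comparison are shown first, from the array files, 5′ to 3′, with the seed (bases 2 to 8) in capitals. The first set holds opposite arms that are read by probes of almost the same name.
dre-miR-122: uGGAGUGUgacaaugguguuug
pol-miR-122-3p: aACGCCAUuaucacacuauaua
dre-miR-365: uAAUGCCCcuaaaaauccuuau
ipu-miR-365: aGGGACUUuuaggggcagcu
The second set holds the miR-193 targets, whose readings parted between the arrays.
dre-miR-193a: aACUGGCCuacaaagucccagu
ola-miR-193a: aACUGGCCuacaaaguccc
dre-miR-193b: aACUGGCCcgcaaagucccgcu
The third set holds the families that read almost alike on both arrays.
dre-miR-103: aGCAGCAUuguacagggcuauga
dre-miR-107a: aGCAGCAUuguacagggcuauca
dre-miR-107b: aGCAGCAUuguacagggcuuu
dre-miR-210-3p: cUGUGCGUgugacagcggcuaa
ola-miR-210-3p: aCUGUGCGugugacagcg
dre-miR-210-5p: aGCCACUGacuaacgcacauug

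By bases 2 to 8 the 20 targets fell into 9 seed groups, and no probe of another family on the chip had any of these seeds. The target of dre-miR-122 is that of ccr-miR-122 with 1 more base, and dre-miR-193a is ola-miR-193a with 3 more bases at the 3′ end. Counted from 1 at the 5′ end, dre-miR-193a and dre-miR-193b differ by U9C, A10G, A20G and G21C, outside the seed. dre-miR-103 and dre-miR-107a differ by G22C alone, and all 6 miR-103 and miR-107 targets have the seed GCAGCAU. ola-miR-210-3p starts 1 base earlier than dre-miR-210-3p, so its bases 2 to 8 form a group of their own. ola-miR-122 and pol-miR-122-3p read the 3p arm of miR-122, and ipu-miR-365 the 5p arm of miR-365, although neither ola-miR-122 nor ipu-miR-365 names an arm. Outside its own family, each of the 20 targets was at least 5 mismatches away from every other target on the chip (no gaps, shifts of up to 2 bases, 16 or more bases aligned). Within a family, 1 sturgeon miRNA may reach several of these probes. Whether the sturgeon miRNAs have exactly these sequences was not analysed here.

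The male gonad gave more signal than the female gonad for miR-122 (the 5p arm), miR-193a and the 3p arm of miR-365. Relative to the chip as a whole it gave less for miR-193b, whose sign turned without normalization, and almost the same for miR-103, miR-107 and both arms of miR-210. The differences ranged from 1.35 (dre-miR-365, 2.54-fold higher in the male) to -0.63 (dre-miR-193b) on the log2 scale, male minus female. Of the 20 probes 18 were detected, all on both arrays, and 4 were higher in the male gonad by the size rule while 0 were higher in the female gonad. Detection needed 3 of the 5 repeat spots of a probe above the limit set by the empty spots of its array, their 95th percentile. The size rule asked for detection on the brighter array, a normalized difference of 1 or more in log2 units (2-fold), and no overlap between the spots of the arrays. Over the 490 probes detected on at least 1 array, 23 (4.69%) were higher in the male gonad and 8 (1.63%) in the female gonad by this rule. The grouping was proposed with these differences known, so the members' count is given beside that background as a description and nothing is read from it. With 1 fish and 1 array per sex there is no test between the sexes and no p-value, and every ± below is an SD over 5 repeat spots of a probe on 1 array, which are technical.

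The arrays differed in overall brightness. All miRNA spots together gave an intensity of 7.03e+06 on the male and 5.53e+06 on the female array. After subtraction of the empty-spot median (80.5 male, 86.7 female) the median ratio of male over female was 1.44 across 416 probes detected on both. Quantile normalization took this shift out, so all normalized differences are relative to it, and a difference of the whole profile by sex cannot be told apart from one between arrays. In a whole gonad, more cells of a type and more RNA per cell cannot be told apart either.

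**Figure D1:**
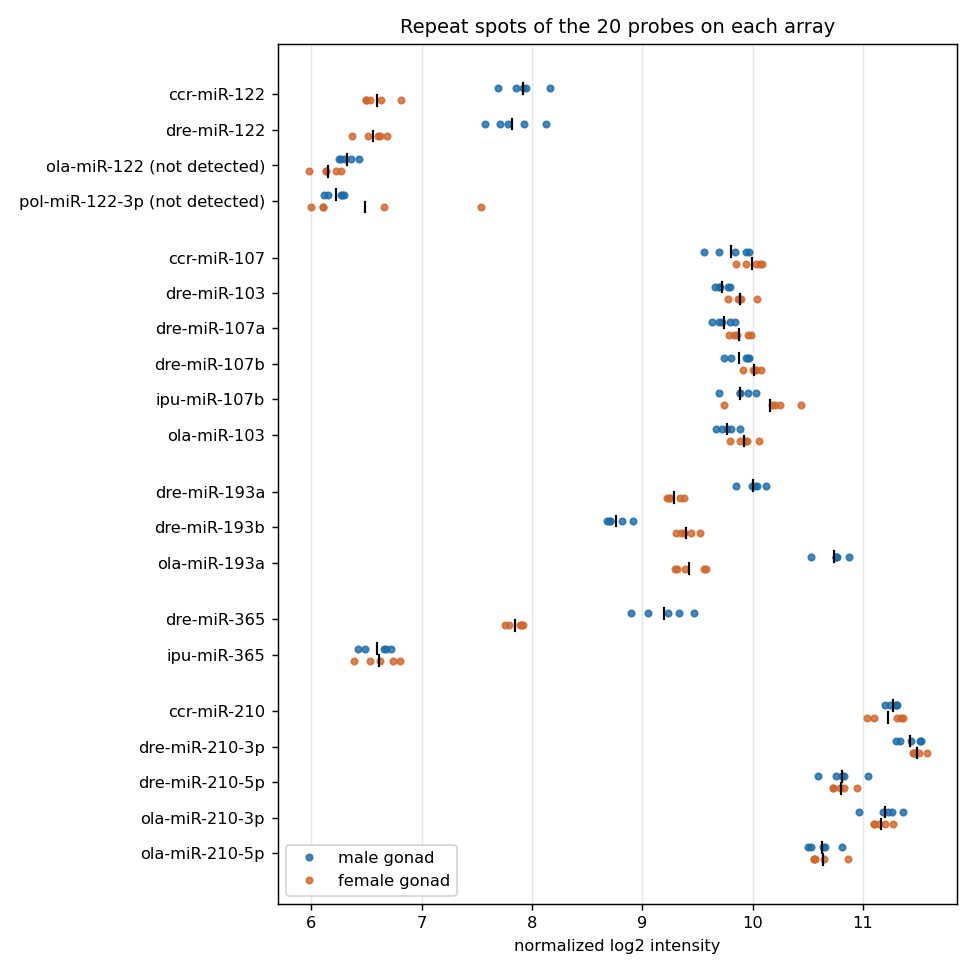
Repeat spots of the 20 probes, by family. The x axis is the normalized log2 intensity; each point is 1 of 5 spots, the black bar their mean, with the male array above the female array for each probe. Spots of ccr-miR-122, dre-miR-122, dre-miR-193a, ola-miR-193a and dre-miR-365 lie higher on the male array without overlap, those of dre-miR-193b lie lower on this scale (its sign turned without normalization), and the other detected probes overlap.

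miR-122, the hepatocyte miRNA, was read by a pair of near-identical 5p probes. ccr-miR-122 had raw spot intensities of 274 to 374 (median 318) on the male array, against 103.3 to 126 (median 106) on the female array. dre-miR-122 had 259 to 374 (median 297) on the male array, against 97.2 to 118 (median 112) on the female array. Every male spot of either probe was thus brighter than every female spot, and the female spots stood close to the detection limit, which was 113 on the male and 103.5 on the female array. On the normalized scale ccr-miR-122 gave 7.92 ± 0.17 (male gonad) and 6.59 ± 0.14 (female gonad), a difference of 1.32 (2.50-fold). dre-miR-122 read 7.82 ± 0.21 and 6.56 ± 0.12 in the male and female gonad, a difference of 1.26 (2.40-fold).

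How large the miR-122 difference was depended on the background step, since the female signal was so near the empty spots, and also on the normalization. With plain background subtraction in place of the model-based correction these differences became 2.56 for ccr-miR-122 and 2.52 for dre-miR-122. The authors' deposited table gives 152.1 in the male and 17.9 in the female for ccr-miR-122, a ratio of 8.52. As used among the settings, with a constant added, that table gave differences of 1.57 for ccr-miR-122 and 1.54 for dre-miR-122. Against a stricter detection limit, the 99th percentile of empty spots (182 male, 238 female), both probes were detected on the male array only, and the lowest detected female value then exceeded the male reading, so no fold could be bounded. The 3p arm probes ola-miR-122 and pol-miR-122-3p were detected on neither array. pol-miR-122-3p had a single female spot of 203 raw intensity, while its median female spot read 84.5 and its highest male spot 92.4.

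miR-193, whose members share the seed ACUGGCC, gave readings that parted by letter. The medaka probe ola-miR-193a had raw spots of 1817 to 2299 (median 2128) on the male array, against 542 to 653 (median 576) on the female array. The longer zebrafish probe of the same sequence, dre-miR-193a, had 1190 to 1431 (median 1334) on the male array, against 524 to 580 (median 532) on the female array. For both miR-193a probes every male spot was brighter than every female spot. dre-miR-193b, by contrast, had 563 to 660 (median 573) on the male array and 544 to 628 (median 571) on the female array, so its raw spots overlapped on arrays whose other probes were mostly brighter in the male.

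Normalized, ola-miR-193a gave 10.74 ± 0.13 on the male and 9.43 ± 0.13 on the female array, a difference of 1.31 (2.48-fold). dre-miR-193a read 10.005 ± 0.10 in the male and 9.29 ± 0.07 in the female, a difference of 0.72 that did not reach the size limit. dre-miR-193b read 8.77 ± 0.10 in the male and 9.40 ± 0.08 in the female, a difference of -0.63 (1.55-fold lower in the male), with no overlap of its normalized spots. It too was within the size limit. These probes were the members nearest to the limit of 1 among those that did not reach it, and dre-miR-122 at 1.26 was the nearest past it.

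A shift of a whole array cancels in the gap between the miR-193a and miR-193b differences. Settings that only shift an array, no normalization among them, must therefore give the same gap as each other. An array effect that varies with the bases of a target would not cancel. G and C made up 63.6% of dre-miR-193b, 50% of dre-miR-193a and 52.6% of ola-miR-193a. Over the probes detected on both arrays, the Pearson correlation of this percentage with the difference was -0.17. Its part in the gap was not tested. The gap was 1.94 between ola-miR-193a and dre-miR-193b and 1.35 between dre-miR-193a and dre-miR-193b as reported. With no normalization at all these gaps were 1.81 and 1.25. Over the 15 other settings of background, normalization and spot summary, the authors' table included, the gaps stayed between 1.80 and 2.14 for the first pair and between 1.25 and 1.53 for the second. Unlike the gaps, the dre-miR-193b difference taken by itself had a sign that depended on the array level. This difference was 0.04 without normalization and 0.28 when the arrays were set level by the control probes with P in their names. In both of those settings the whole chip was shifted toward the male, and dre-miR-193b lay below the median of all probes detected on both arrays in 15 of 15 settings. These settings are not independent, since those that only shift a whole array give the same distance from that median. The authors' deposited table gives 1560 in the male and 621 in the female for ola-miR-193a, and 363 in the male and 663 in the female for dre-miR-193b. The ola-miR-193a and dre-miR-193a differences parted by 0.59 although their first 19 bases are the same.

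miR-365, copies of which lie beside miR-193a and beside miR-193b in vertebrate genomes, was read on both arms by different probes. dre-miR-365, for the 3p arm, had raw spots of 594 to 873 (median 746) on the male array, against 185 to 205 (median 201) on the female array. Its 5 male spots were all brighter than its 5 female spots, and spread more widely. Normalized it gave 9.20 ± 0.23 on the male and 7.85 ± 0.07 on the female array, a difference of 1.35 (2.54-fold), and 5.95-fold before normalization and after background subtraction. At the stricter detection limit the female value was not detected, and the male was then at least 2.11-fold higher. ipu-miR-365, for the 5p arm, read 6.59 ± 0.13 in the male and 6.62 ± 0.17 in the female, with 3 of 5 male and 4 of 5 female spots over the limit. Its raw spots were 104 to 124.1 on the male array and 96.2 to 123 on the female array, so at this signal no difference in the 5p arm was detectable. The authors' deposited table gives 431 in the male and 146 in the female for dre-miR-365, and 16.6 and 16.9 for ipu-miR-365. Whether miR-365 and miR-193 genes lie together in the sturgeon was not analysed here. Set against the miR-193 probes, the difference of dre-miR-365 lay 0.04 above that of ola-miR-193a and 0.63 above that of dre-miR-193a, but 1.98 above that of dre-miR-193b. Over the other settings these gaps ranged from 0.00 to 0.30, from 0.58 to 0.92 and from 1.90 to 2.44 in the same order. G and C made up 31.8% of the dre-miR-365 target, and the part of base content in these gaps was not tested.

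**Figure D2:**
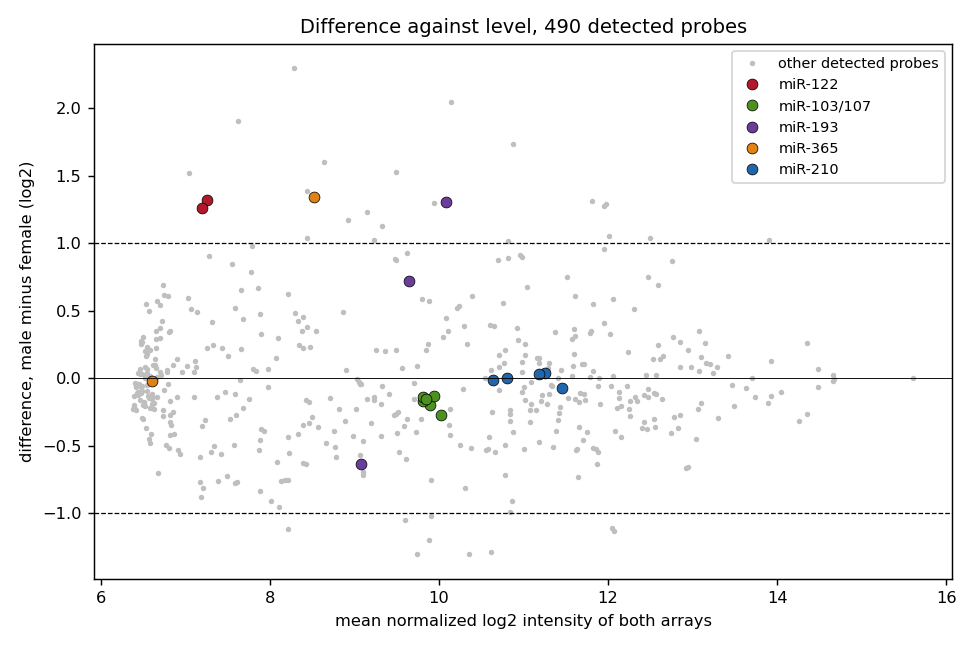
Difference between the gonads (male minus female, log2) against the mean normalized log2 intensity of both arrays, for the 490 probes detected on at least 1 array; coloured points are the 18 detected probes described here and dashed lines mark the size limit of 1. miR-122, dre-miR-365 and ola-miR-193a lie above the upper line, dre-miR-193b lies at -0.63 (0.04 without normalization), and miR-103, miR-107 and miR-210 lie within 0.27 of 0.

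miR-103 and miR-107, miRNAs of insulin signalling, read slightly lower in the male gonad on all 6 probes after quantile normalization, by 0.13 to 0.27 on the log2 scale, a sign that turned on all 6 without normalization. dre-miR-103 read 9.73 ± 0.06 in the male and 9.89 ± 0.09 in the female, a difference of -0.17. dre-miR-107a read 9.74 ± 0.08 in the male and 9.88 ± 0.09 in the female, a difference of -0.14. The spots overlapped between the arrays for all 6 probes, and their median difference was -0.16, beside -0.06 over all 490 detected probes. ipu-miR-107b, the shortest target at 19 bases, had the largest difference (-0.27) and the widest female spots, with raw values of 660 to 1061 on the female array and 1059 to 1325 on the male array.

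Before normalization the 6 probes were 1.41-fold to 1.501-fold brighter on the male array after background subtraction, beside 1.44-fold for the median probe. Their difference relative to the chip's median was between -0.22 and -0.07 as reported, and was above that median in 3 of 15 other settings for each probe, among them no normalization. Those 3 settings differ only by a shift of a whole array, so they give the same value, and most of the others kept quantile normalization. The count is therefore no vote among independent settings. No direction can be given for this family. Nearly the same sequence lies behind all 6 readings, so their number adds little. dre-miR-103 and dre-miR-107a, which differ by G22C, had differences 0.02 apart.

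**Figure D3:**
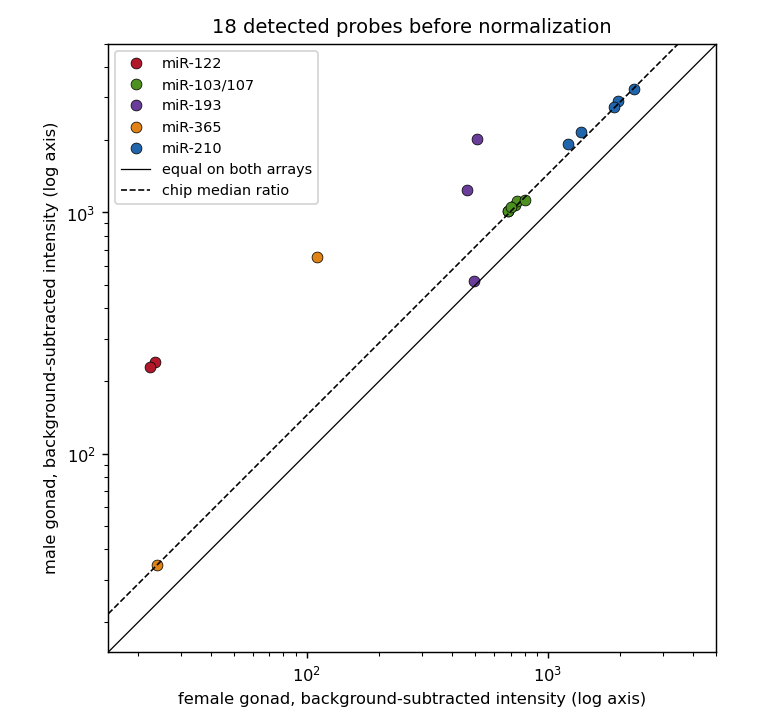
Background-subtracted intensity of the 18 detected probes before normalization, male array against female array on log axes. The solid line marks equal intensity and the dashed line the chip's median ratio of 1.44; miR-103, miR-107, miR-210 and ipu-miR-365 lie along the dashed line, the miR-122, miR-193a and dre-miR-365 probes above it, and dre-miR-193b below it, close to the solid line.

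miR-210, the miRNA of the hypoxia response, read nearly the same in both gonads on 5 probes of both arms. dre-miR-210-3p read 11.42 ± 0.10 in the male and 11.49 ± 0.05 in the female, a difference of -0.07. ccr-miR-210, the same target without its last 2 bases, read 11.27 ± 0.05 in the male and 11.23 ± 0.15 in the female, a difference of 0.04. The passenger arm behaved likewise, with dre-miR-210-5p at 10.81 ± 0.16 in the male and 10.81 ± 0.09 in the female. All 5 differences lay between -0.07 and 0.04, and all 5 pairs of spot sets overlapped. Of all 490 detected probes 48.2% differed by at most 0.25, so values this close were common on the chip. In raw intensity the probes were brighter on the male array, as the chip was as a whole, with dre-miR-210-3p at 3060 to 3592 on the male array and 2302 to 2505 on the female array. Relative to the chip's median their differences ranged from -0.05 to 0.18 over the other settings.

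**Figure D4:**
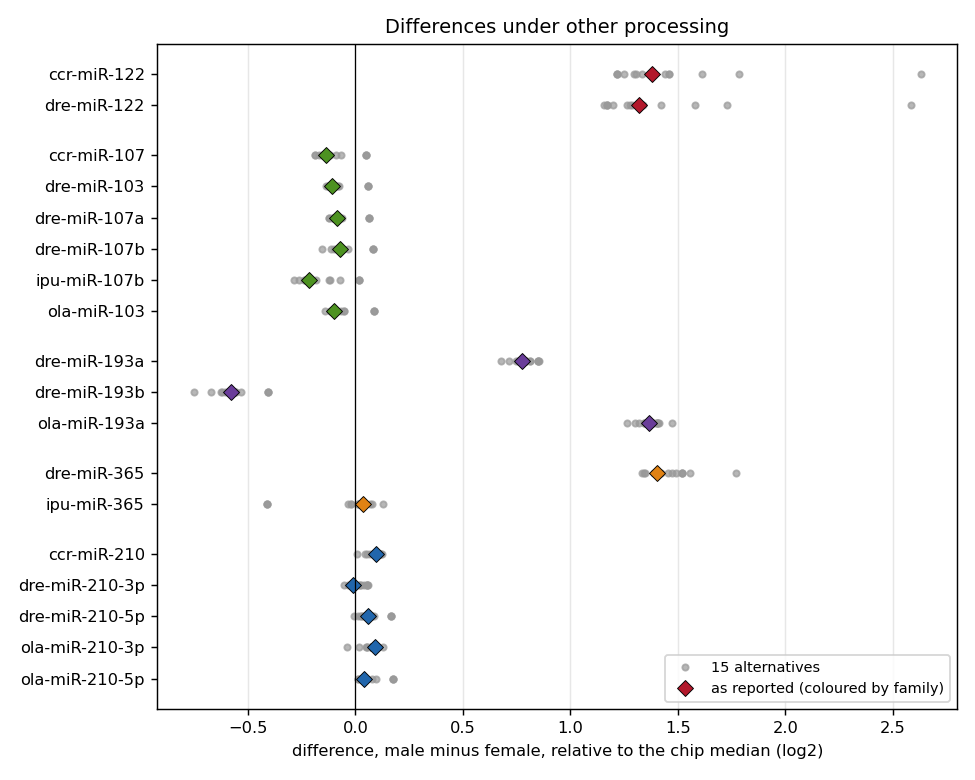
Difference of each detected probe (male minus female, log2) relative to the median of all probes detected on both arrays. Coloured diamonds give the reported processing and grey points 15 other settings; the miR-122, miR-193a and dre-miR-365 probes stay right of 0 in all of them, dre-miR-193b stays left of 0, and the miR-103, miR-107 and ipu-miR-365 probes fall on both sides.

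By family, the median difference was 1.29 for miR-122 (2 detected probes), 0.72 for miR-193 (3), 0.66 for miR-365 (2), 0.00 for miR-210 (5) and -0.16 for miR-103 and miR-107 (6). The miR-365 median merges the 3p probe at 1.35 with the 5p probe at -0.02, which lay near the detection limit. The miR-193 median likewise merges probes from -0.63 to 1.31. Over all 18 detected probes the median difference was -0.02, beside -0.06 for the whole chip. Spots did not overlap between the arrays for 5 of the 18 probes toward the male and 1 toward the female, while over the 490 detected probes the shares were 19.4% toward the male and 23.7% toward the female. The probes outside these families whose difference was nearest to those of the leading probes, over the 2 arrays, were the custom probe novel_11 (1.32) and dre-miR-223 (1.30) for ccr-miR-122 and for ola-miR-193a, and novel_11 and ola-let-7g (1.38) for dre-miR-365. With 2 arrays such likeness is a similar difference only.

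Other miRNAs of lipid, energy and hypoxia control were read as well. Of 12 probes for miR-33, miR-148, miR-152 and miR-455, miRNAs of sterol, liver and fat cell metabolism, 10 were detected and 0 passed the size rule in either direction. Their differences ran from -0.23 to 0.57 with a median of 0.00, and the brightest, ola-miR-148, read 11.54 ± 0.15 in the male and 11.69 ± 0.28 in the female. The highest difference was that of the other miR-148 probe, dre-miR-148. Spots did not overlap for 3 of the 10 toward the male and 0 toward the female, beside 19.4% and 23.7% of all 490 detected probes. ola-miR-33, for a miRNA encoded within sterol regulator genes, was detected on neither array. Among 10 probes for miR-21 and miR-199, which respond to hypoxia in mammalian cells, 8 were detected and 0 passed. Their differences ran from -0.11 to 0.61 with a median of 0.01, and the brightest, pol-miR-21-5p, differed by -0.0040. The 2 largest, ola-miR-199a-3p (0.61) and ola-miR-199a-5p (0.52), had widely spread female spots, with SDs of 1.12 and 1.44.

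Markers of tissues near the gonad read in different directions. The hepatocyte list consists of miR-122 alone, so it repeats the reading above and gives no separate marker of hepatocytes. Its summed background-subtracted intensity over 2 detected of 4 probes was 467 on the male and 45.9 on the female array, with the 3p probes undetected on both. miR-192 and miR-194, epithelial miRNAs of gut and kidney that liver also holds, went the other way. Of their 8 probes 6 were detected, 4 were higher in the female gonad and 0 in the male, and their summed intensity was 3563 on the male and 5281 on the female array. Without normalization, or with scaling to the P control probes, the size rule called 0 probes of the whole chip higher in the female gonad. The erythroid list (miR-144 and miR-451) had 6 of 6 probes detected, none past the rule, and a median difference of -0.36. Of these 6, 5 lay below 0 and 4 had spots lower in the male without overlap, while their background-subtracted sums, before normalization, were 10411 on the male and 10393 on the female array. Striated muscle miRNAs (17 of 19 detected), neural miRNAs (4 of 13) and miR-143 and miR-145 of smooth muscle and mesenchyme (5 of 5) had no probe past the rule, with median differences of -0.25, -0.01 and -0.10. Of the 17 striated muscle probes 13 lay below 0 and 3 above, with spots lower in the male without overlap for 6 and higher for 1. Over the whole chip, 274 of the 490 detected probes lay below 0 and 211 above. Spots were lower in the male without overlap for 23.7% of the 490 and higher for 19.4%. By the size rule 8 (1.63%) were higher in the female gonad and 23 (4.69%) in the male. Of 3 probes for the gonadal miR-202, only ipu-miR-202 was detected, and it was higher in the male by the size rule. It read 8.58 ± 0.31 in the male and 6.68 ± 0.12 in the female, a difference of 1.90. Its female background-subtracted signal was 26.6, about as dim as that of the miR-122 probes, so the size of this difference is uncertain. The part of other tissues in the miR-122, miR-193a and miR-365 readings was not tested.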

How the data were processed

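Each sex is represented by 1 array, grouped by the sex in the labels. Per the labels' protocols, small RNAs were size filtered, tailed with poly(A), ligated to a tag and stained. Per the file headers, the deposited scanner files hold a median Cy3 intensity and a pixel SD for 3968 spots, with no background correction. The authors' deposited table holds 1 linear intensity per probe; how it was corrected and normalized is not stated in those sources, and it served as an alternative (log2 after adding 50). Scanner values, with digit separators removed, went through normexp (offset 50, all spots), log2, a mean of 5 spots per probe and quantile normalization over 663 probes (R 4.3.3, limma 3.58.1). The offset shrinks differences of dim probes. The median spot SD of detected probes was 0.11 on either array, and the number of arrays limits the precision. Sequences were compared and plots drawn in Python 3.11.15. The size rule was tested on simulated data in which only probes bright on the female array were changed. Probes as dim there as miR-122 were therefore not covered. The simulated noise was the smaller of each probe's 2 spot SDs, with no variation between fish. Both simulated arrays started from the female levels, without the brightness shift seen between the real arrays. Nothing above rests on that simulation. The choice of probes to name was all members, list members past the rule or else the brightest, and the 2 nearest differences per family past the rule. Not all probes of that choice are named above, and a few others are. Members, lists, rule and alternatives were chosen with earlier results of these data known.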

Additional observations from a re-analysis of the deposited data

How the results depend on the processing

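The same 4 members (ccr-miR-122, dre-miR-122, dre-miR-365 and ola-miR-193a) were higher in the male gonad under all 19 alternatives. Not all of these could have removed a member. The 1.5-fold limit and allowing spot overlap only loosened the rule, and with the authors' table spot overlap was not asked. No normalization and scaling to the P control probes shifted the whole chip toward the male. In those 2 settings and at the 1.5-fold limit dre-miR-193a joined the 4 members. Reducing near-identical targets left 3. At the 1.5-fold limit dre-miR-193b was 1 member higher in the female. The median over detected members was -0.02, but 0.53 without normalization and 0.77 with scaling to the P control probes, where the chip's own medians were 0.45 and 0.68. Across the chip, male-higher probes numbered 74 without normalization, 108 with P control scaling, 38 with plain subtraction and 50 at the 1.5-fold limit, against 23 as reported. Female-higher probes numbered 4 with cyclic loess, 0 without normalization and with P control scaling, 33 with plain subtraction, 15 with offset 16 and 38 at the 1.5-fold limit, against 8. Apart from the lower limit, whose own construction admits more probes, the cause was not tested. Leaving out each repeat spot kept ccr-miR-122 between 1.23 and 1.41, ola-miR-193a between 1.28 and 1.36 and dre-miR-365 between 1.30 and 1.43. No paired analysis was possible because each sex has 1 array.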

Other observations

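miR-103 and miR-107 share the 7 bases AGCAGCA at their 5′ end with miR-15, miR-16 and miR-457, a group linked to the cell cycle. Within the first 8 bases, 16 probes of that group held these bases and 15 were detected. Of these, 14 lay above 0 (male minus female) and 1 below, with a median of 0.27, while all 6 miR-103 and miR-107 probes lay below 0 with a median of -0.16, and over the whole chip 211 of 490 detected probes lay above 0. The miR-103 and miR-107 signs rest on the normalization. Without it, an alternative chosen after seeing the data, all 6 of these probes lay above 0 (0.46 to 0.53, median 0.51). All 15 others lay above 0 too, with a median (0.83) again above that of miR-103 and miR-107, as did 389 of the 490. The chip's median in that setting, taken over the probes detected on both arrays, was 0.45. Above it lay all 6, 12 of the 15 and 214 of the 490. By name the group has 20 probes, of which 18 were detected and dre-miR-457b passed the size rule, at 9.76 ± 0.15 in the male and 8.53 ± 0.08 in the female. Many of these targets are near-identical, and no test applies with 1 array per sex.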
